A study of Homo sapiens with 8 samples.

Results

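The solute carrier (SLC) genes that A549 cells express at a measurable level were examined in 8 RNA-seq libraries, 4 labelled siCTRL and 4 labelled siAPEX1. The members were the protein-coding genes of GENCODE 44 with a symbol of SLC followed by a digit and at least 80 counts summed over all 8 libraries, with SLC2A1, SLC3A2 and SLC7A11 set aside. Of the 373 protein-coding SLC genes among the 58302 rows of the count table, 275 had at least 1 count and 70 reached the limit, which left 67 members, 10 of them in the SLC25 family. The members were thus selected on their summed raw counts, over both groups together, and not on the difference between them. The libraries labelled siCTRL held more counts, however, so a gene higher under that label reached the limit more easily. Just inside the limit lay SLC16A5 with 80 counts and SLC35A2, SLC35F3, SLC35F5, SLC39A13 and SLC4A1AP with 81 each. Just outside it lay SLC25A1, the mitochondrial citrate carrier, and SLC2A13 with 79 counts each and SLC40A1, the iron exporter, with 77. SLC4A1AP and SLC2A4RG carry the name of a carrier that they bind or regulate and are not transporters themselves.

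A549 is an established line from a human lung adenocarcinoma. The cells were transfected transiently, with 1 siRNA against APEX1 (the gene of the endonuclease APE1) for the libraries labelled siAPEX1 or with a scramble siRNA for those labelled siCTRL, and were collected 72 h later. The 4 libraries of a group are replicates of 1 line and the labels do not say whether they came from separate transfections, so the p-values measure the spread between these libraries. Total RNA was made into libraries with a small RNA kit that was altered to read longer transcripts, so the counts on a protein-coding gene are counts of its fragments.

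Solute carriers are membrane proteins that move amino acids, sugars, ions, metals, nucleotides and vitamins across the plasma membrane or between compartments of the cell. The SLC25 family lies almost wholly in the inner mitochondrial membrane. It exchanges ADP for ATP, brings in phosphate, and carries iron, glutathione and the intermediates of metabolism, all of which that membrane does not let through on its own. Many carriers of the other families are coupled to the sodium gradient or work with a partner chain, as SLC7A5 does with SLC3A2 and SLC16A1 with basigin.

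APEX1 had 51, 61, 64 and 47 counts in the libraries labelled siCTRL and 21150, 19470, 27916 and 20767 in those labelled siAPEX1. The siRNA was directed at this gene, and a count for the gene cannot tell fragments of the siRNA from those of its mRNA. The counts are opposite to what the label of a silenced gene says, and all directions below are those of the libraries as labelled. The libraries held between 1348386 and 1949886 counts, and each library labelled siAPEX1 held fewer than each labelled siCTRL, so that depth and label cannot be told apart. The members took between 0.0966% and 0.142% of the counts of a library. Nuclear protein-coding genes other than APEX1 held between 15% and 15.7% of the counts under the label siCTRL and between 12% and 12.7% under the label siAPEX1. The 6 epithelial markers all had counts, with sums between 1024 and 1379 per library under the label siCTRL and between 278 and 358 under the label siAPEX1, and the sums of 6 genes that A549 cells express strongly lay between 2030 and 2515 and between 1449 and 1747. Of the epithelial markers, KRT7, KRT8, KRT18 and KRT19 were lower under the label siAPEX1, with log2 fold changes from −2.31 to −1.01, and CDH1 was higher (0.92). CDKN2A, which A549 cells have lost, and the endothelial markers PECAM1 and CDH5 had 0 counts in every library. The sums of 4 immune markers lay between 0 and 9 per library, those of 3 fibroblast markers between 2 and 12 and those of 3 hepatocyte markers between 4 and 12. The part of depth and of these markers in the results below was not tested. In bulk RNA, fewer cells of a type and less RNA per cell cannot be told apart.

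The first question was whether SLC25 genes and the other SLC genes differed between the labels. Summed over the 10 SLC25 genes, the level lay between 291 and 316 CPM (counts per 1e+06, scaled to the library size and its TMM factor) in the libraries labelled siCTRL and between 282 and 308 in those labelled siAPEX1. These ranges overlap, and the means were 304 ± 13 and 294 ± 12.3 CPM (SD, n = 4 libraries each), a difference of −3.4%. With TMM factors from protein-coding genes it was −0.7%. Summed over the 57 other members, the level lay between 897 and 946 CPM and between 806 and 835 CPM, and here the groups did not overlap. The means were 920 ± 22.6 and 820 ± 12 CPM (SD, n = 4 each), a difference of −10.9%. The difference did not rest on SLC38A2, the most counted member, since it was −10.4% without that gene. SLC25 genes therefore made up a larger part of the members' counts, between 24.5% and 25.2% under the label siCTRL and between 25.5% and 27.7% under the label siAPEX1. Relative to other mRNA, all 67 members together had between 87.0 and 91.9 counts for every 10000 counts on nuclear protein-coding genes (APEX1 left out) under the label siCTRL and between 80 and 82.4 under the label siAPEX1, again without overlap. Since the members were chosen with earlier results known, these sums are given with no test. The limit on raw counts favours genes that are higher under the label siCTRL, and its part in these sums was not tested. With library size as the only scaling, the sums differed by −23.4% for SLC25 genes and −29.4% for the others, while the median over all genes tested moved from −0.003 to −0.337 (log2 fold change).

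**Figure D1:**
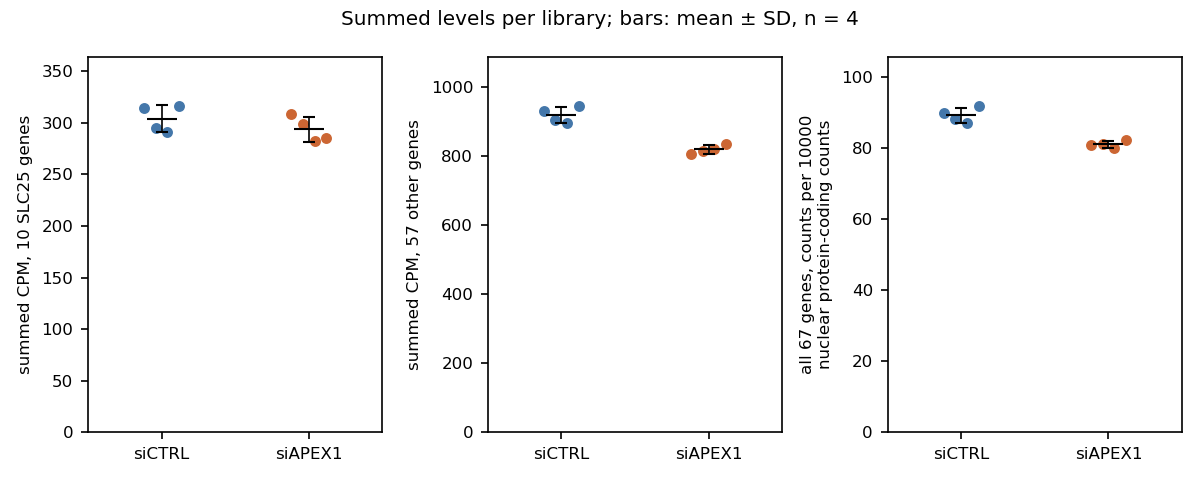
Summed level per library (points) with the mean and SD of each group of 4 libraries, for the SLC25 genes (left, CPM), the other members (middle, CPM) and all members per 10000 counts on nuclear protein-coding genes (right). The groups overlap for SLC25 genes and lie apart for the other members (897 to 946 CPM under the label siCTRL and 806 to 835 CPM under the label siAPEX1).

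Differences of single genes were tested with edgeR's quasi-likelihood test over all 5368 genes that passed a filter on low counts, with Benjamini-Hochberg adjustment. Of the 67 members 64 passed the filter, and SLC35A2, SLC35F3 and SLC35F5 did not. At an adjusted p of at most 0.05, 23 of the 64 members passed (35.9%), against 31.7% of all genes tested. Higher under the label siAPEX1 were 8, against 15.9% of all genes, and lower were 15 (23.4%), against 15.8% of all genes. Asking in addition for a log2 fold change of 1 or more in size left 10 members, against 9.28% of all genes, of which 3 were higher (3.6% of all genes) and 7 lower (5.68% of all genes). The libraries of the groups did not overlap in 7 members that were higher (14% of all genes) and 18 that were lower (14.9% of all genes). Among the 4870 protein-coding genes tested, 28.4% passed the adjusted p, 12.5% higher and 15.9% lower, and 8.44% passed both thresholds, 2.69% higher and 5.75% lower, while the libraries did not overlap in 10.8% that were higher and 15.1% that were lower. With edgeR the shares of members are thus near these for rises and above them for falls. The falls include SLC22A18, SLC25A24, SLC35D2 and SLC39A4, which the filter let through only by their level under the label siCTRL. The lower members without overlap include these and also SLC39A13 and SLC50A1, let through in the same way. Among the other falls, SLC25A46 reached the filter's cutoff in 1 library labelled siAPEX1, SLC2A3, SLC35B1 and SLC4A2 in 2 and SLC39A6 in 3. Each reached it in all 4 libraries labelled siCTRL, so these calls also lean on the level under that label. The larger share of falls is therefore not read as a result about the members. The median log2 fold change was −0.40 over the 10 SLC25 genes and −0.27 over the 54 other members tested, against −0.03 over those protein-coding genes. With a limit of 160 counts in place of 80 the medians were −0.199 for SLC25 genes and −0.292 for the others, so the order of the sets depends on the limit. Over the 4513 other protein-coding genes tested with summed counts in the members' range the median was −0.029, with 15.6% lower and 12.4% higher. The part of the limit on raw counts in the medians was not tested. In 6 of the tested members, SLC22A18, SLC25A24, SLC35D2, SLC39A13, SLC39A4 and SLC50A1, no library labelled siAPEX1 reached the filter's 6.14 CPM, so these were tested only because their level was higher under the label siCTRL, and SLC30A1 reached it in only 1 library labelled siCTRL.

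With DESeq2 in place of edgeR, all 67 members had an adjusted p, and 1 was higher and 4 were lower at 0.05 or less. Over all genes with an adjusted p, 11.8% passed (5.94% higher and 5.84% lower), so the share of falls was near that of all genes. The 5 members were among the 23 called with edgeR. These were SLC7A5, which was higher, and SLC33A1, SLC35B1, SLC4A2 and SLC39A4, which were lower, and the same 5 were the ones that passed in every alternative that tested them. The remaining 18 calls rest on edgeR, and with DESeq2 their adjusted p lay above 0.05. With library size only, 3 members were higher and 31 lower, against 6.45% and 35.7% of all genes tested.

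**Figure D2:**
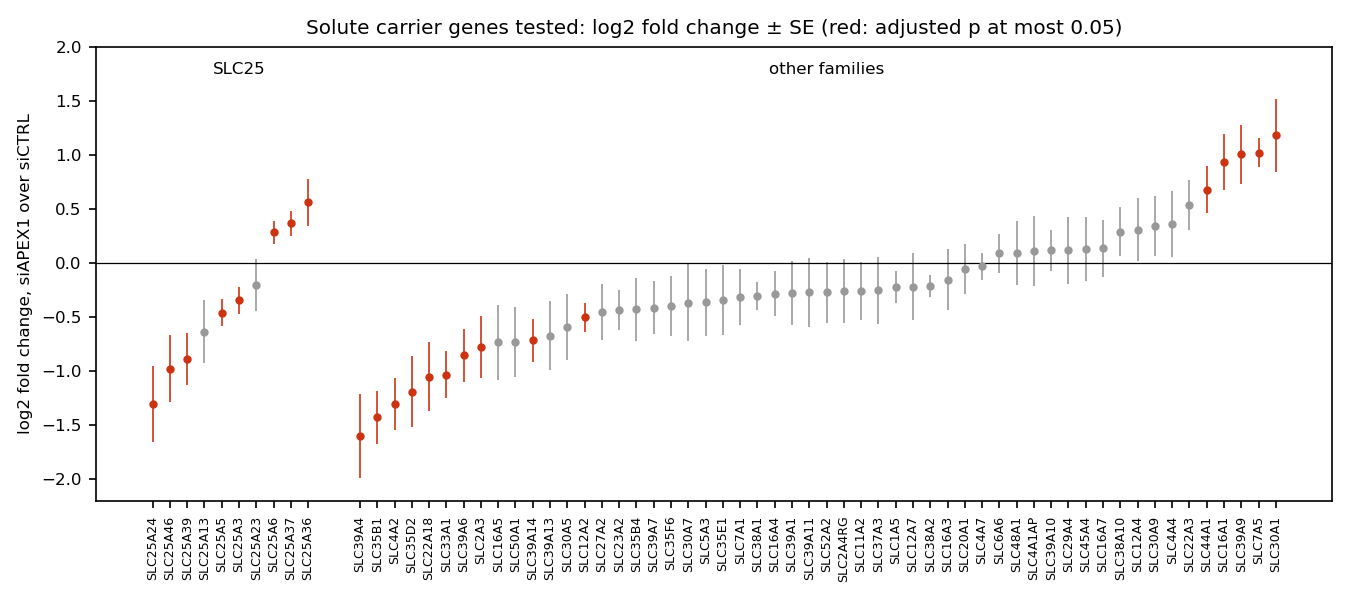
Log2 fold change of the 64 tested members, libraries labelled siAPEX1 over those labelled siCTRL, with its standard error, sorted within SLC25 (left) and the other families (right). Red points passed an adjusted p of at most 0.05, namely 3 SLC25 genes above and 5 below 0, and 5 genes of other families above and 10 below 0.

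Within the SLC25 family, 8 of 10 members passed the adjusted p in edgeR, 5 lower and 3 higher under the label siAPEX1, where 31.7% of all genes tested passed (15.8% lower and 15.9% higher). Of the 5 lower, SLC25A24 reached the filter's cutoff in 0 libraries labelled siAPEX1 and SLC25A46 in 1. The carriers of phosphate, of ADP and ATP (SLC25A5), of glutathione and of ATP-Mg were lower, whereas another ADP/ATP carrier (SLC25A6), mitoferrin-1 and a pyrimidine nucleotide carrier were higher. With DESeq2 0 of the 10 passed, against 11.8% of all genes with an adjusted p, with 1 higher and 5 lower at an unadjusted p under 0.05. The 2 members with the most counts, SLC25A6 and SLC25A37, were both higher, and the sum over the other 8, a choice made after their values were seen, lay between 166 and 182 CPM under the label siCTRL and between 123 and 136 CPM under the label siAPEX1, a difference of −25%.

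The adenine nucleotide carriers exchange ADP for ATP across the inner membrane, and 2 of their genes, both on chromosome X, were members. SLC25A5 (chromosome X from 119468422 to 119471396, plus strand) had 108, 119, 111 and 95 counts in the libraries labelled siCTRL and 54, 49, 51 and 46 in those labelled siAPEX1. After scaling, every library labelled siAPEX1 lay below every library labelled siCTRL, with 38.5 ± 3.61 against 52.8 ± 2.64 CPM (SD, n = 4 each). The log2 fold change, siAPEX1 over siCTRL, was −0.46 (SE, its standard error, 0.126, edgeR adjusted p = 0.00422). SLC25A6 (chromosome X from 1386152 to 1392113, minus strand, in the region shared with the Y chromosome) had 152, 133, 149 and 131 counts under the label siCTRL and 103, 110, 116 and 109 under the label siAPEX1. After scaling it moved the other way without overlap, from 69.0 ± 4.998 to 84.2 ± 2.43 CPM (SD, n = 4 each), with a log2 fold change of 0.29 (SE 0.107, edgeR adjusted p = 0.0362). The counts of SLC25A6 for each count of SLC25A5, a ratio that no scaling changes, were 1.41, 1.12, 1.34 and 1.38 in the libraries labelled siCTRL and 1.91, 2.24, 2.27 and 2.37 in those labelled siAPEX1. This ratio was chosen after the values were seen and is given with no test. With library size only the log2 fold change of SLC25A6 was −0.05, so its rise depends on the scaling. Its adjusted p was also above 0.05 without siCTRL replicate 2 (0.118), siCTRL replicate 3 (0.0819) or siAPEX1 replicate 2 (0.0557). Both genes have near-identical copies in the genome, and reads that map to several places are not counted, so their levels are uncertain.

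SLC25A3, the carrier that supplies phosphate for ATP synthesis, had 110, 108, 118 and 94 counts under the label siCTRL and 50, 52, 60 and 53 under the label siAPEX1. In CPM it was lower in each library labelled siAPEX1, at 78.7% of the mean under the label siCTRL, with a log2 fold change of −0.34 (SE 0.122, edgeR adjusted p = 0.0266). The adjusted p lay between 0.0572 and 0.0906 without siCTRL replicate 3 or without any 1 library labelled siAPEX1, and was 0.0515 with TMM factors from protein-coding genes. The annotation places the small nucleolar RNA gene SNORA53 across 26 bases of an exon of SLC25A3, and reads there fall on 2 genes and are not counted.

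SLC25A37, or mitoferrin-1, which brings iron into mitochondria for haem and iron-sulphur clusters, had 117, 138, 115 and 131 counts under the label siCTRL and 111, 95, 109 and 97 under the label siAPEX1. Scaled to CPM, these were 61.5 ± 8.31 and 79.3 ± 6.79 (SD, n = 4 each), without overlap, and the log2 fold change was 0.37 (SE 0.116, edgeR adjusted p = 0.012). Without siCTRL replicate 3 the adjusted p was 0.0728, and with library size only the log2 fold change was 0.035. SLC25A36, a carrier of pyrimidine nucleotides, had 24, 18, 23 and 19 counts against 20, 21, 22 and 16, and a log2 fold change of 0.56 (SE 0.220, edgeR adjusted p = 0.0455). This call was the least firm of the family, since without any 1 of siCTRL replicates 2, 3 and 4 or of siAPEX1 replicates 1, 2 and 3 the adjusted p lay between 0.0641 and 0.126, and with the replicate number as a block it was 0.0548.

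SLC25A39, which imports glutathione into mitochondria, had 49, 33, 30 and 28 counts under the label siCTRL and 12, 12, 14 and 10 under the label siAPEX1. It was lower in each library labelled siAPEX1, with a log2 fold change of −0.88 (SE 0.238, edgeR adjusted p = 0.00353), and siCTRL replicate 1 was the highest library. SLC25A24, a calcium-regulated carrier that exchanges ATP-Mg for phosphate, had 15, 14, 23 and 15 counts against 5, 3, 3 and 6. Its log2 fold change of −1.30 (SE 0.350, edgeR adjusted p = 0.00344) was the lowest of the family, and 2 of its libraries held no more than 3 counts. SLC25A24 reached the filter's cutoff in no library labelled siAPEX1 and was tested only because of its level under the label siCTRL. SLC25A46, which lies in the outer membrane and takes part in mitochondrial fission and lipid transfer rather than in transport through the inner membrane, had 15, 22, 21 and 23 counts against 8, 9, 4 and 5. The log2 fold change was −0.97 (SE 0.309, edgeR adjusted p = 0.0133), and the adjusted p was 0.0984 without siAPEX1 replicate 3 and 0.0607 without siAPEX1 replicate 4. SLC25A46 reached the filter's cutoff in only 1 library labelled siAPEX1, so its test also leaned on its level under the label siCTRL.

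The other SLC25 members did not pass. SLC25A13, the aspartate/glutamate carrier of the malate-aspartate shuttle, had 24, 15, 18 and 24 counts against 9, 6, 11 and 7 and a log2 fold change of −0.64 (SE 0.291, edgeR adjusted p = 0.0926). SLC25A23, another ATP-Mg carrier, had 25, 22, 34 and 24 counts against 11, 19, 10 and 18 and a log2 fold change of −0.20 (SE 0.242, edgeR adjusted p = 0.578). For both, the libraries of the groups overlapped.

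**Figure D3:**
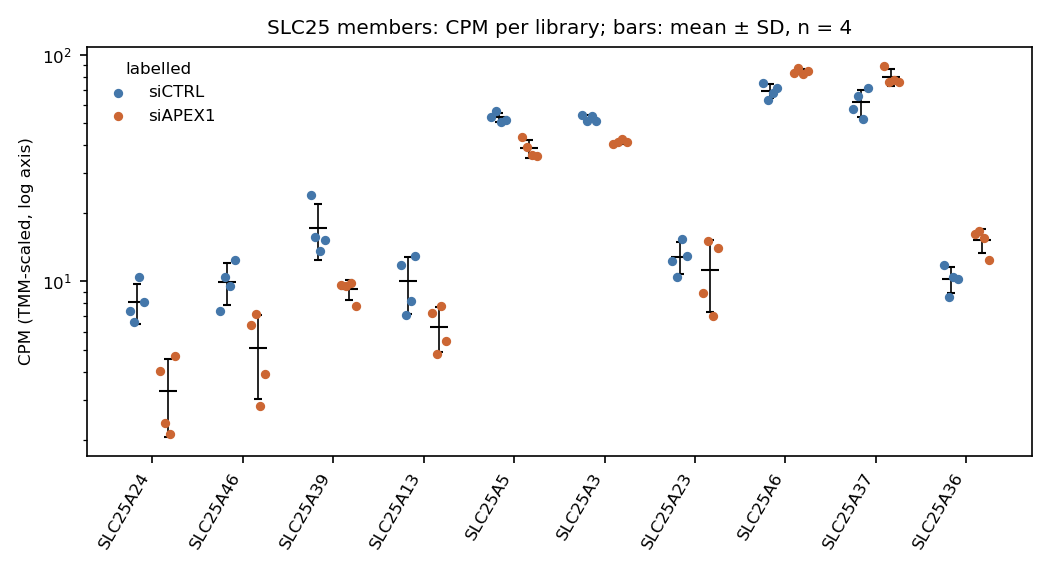
CPM per library (log axis) of the 10 SLC25 members, sorted by log2 fold change, with the mean and SD of each group of 4 libraries. SLC25A5 and SLC25A3 lie lower and SLC25A6, SLC25A37 and SLC25A36 higher in each library labelled siAPEX1, while the groups overlap for SLC25A13 and SLC25A23.

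The length of a gene was taken as all its annotated exons joined, which can exceed the length of 1 transcript. Ranks by this length thus also depend on the annotation. Compared per this length, SLC25A6 and SLC25A5 had the highest levels of the members, while SLC25A36 had 0.992, SLC25A46 1.2 and SLC25A24 1.21 CPM per kilobase of exon under the label siCTRL. Under the label siCTRL, SLC25A6 had 44.5 and SLC25A5 34 CPM per kilobase of exon, ahead of SLC38A2 with 23.2, SLC1A5 with 12.9 and SLC25A37 with 7.69. Under the label siAPEX1 the level per kilobase was 54.2 for SLC25A6, 24.8 for SLC25A5, 20 for SLC38A2, 13.1 for SLC7A5, 11 for SLC1A5 and 9.91 for SLC25A37. SLC7A5 had 6.4 under the label siCTRL, below SLC25A37, and stood above SLC1A5 and SLC25A37 under the label siAPEX1.

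The genes that serve these carriers were described from a list of 28 partners, which holds the sodium pump, basigin and embigin, the mitochondrial pyruvate carrier, the outer membrane channels, SLC25-like proteins of the outer membrane, the import machinery for carriers and the calcium uniporter. Of these 17 were tested, and with edgeR 0 passed the adjusted p, against 31.7% of all genes tested. At an unadjusted p under 0.05, 3 were lower and 0 higher. DESeq2 likewise gave 0, against 11.8% of all genes with an adjusted p, with 0 of 28 at an unadjusted p under 0.05. The median log2 fold change was −0.26 over the 17 genes and −0.33 over the 5 tested genes of the import machinery. It was −0.003 over all genes tested and −0.03 over the protein-coding genes tested. VDAC1, the channel through which nucleotides cross the outer membrane, had a log2 fold change of 0.22 (edgeR adjusted p = 0.231), and ATP1B1, a chain of the sodium pump, one of −0.02 (0.889).

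Among the 7 carriers of amino acids and taurine, 1 was higher and 0 were lower past the adjusted p in edgeR, with 2 lower at an unadjusted p under 0.05. Of all genes tested, 15.9% were higher and 15.8% lower past the adjusted p. SLC7A5 (chromosome 16 from 87830023 to 87869507, minus strand), or LAT1, is the light chain of a transporter that takes up leucine and other large neutral amino acids. It had 64, 54, 74 and 58 counts in the libraries labelled siCTRL and 93, 75, 85 and 70 in those labelled siAPEX1. Even before scaling, 3 of the 4 libraries labelled siAPEX1 had more counts than any labelled siCTRL, and in CPM the groups lay far apart, at 30.5 ± 3.43 and 62.2 ± 8.84 (SD, n = 4 each). The log2 fold change of 1.02 (SE 0.131, edgeR adjusted p = 3.88e-08) had the lowest adjusted p of all members, and it stayed between 0.69 and 1.11 under the alternatives. SLC3A2, the heavy chain of the same transporter and not a member, had 71, 60, 64 and 67 counts against 41, 40, 48 and 48 and a log2 fold change of 0.09 (SE 0.143, edgeR adjusted p = 0.689).

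SLC38A2, a sodium-coupled carrier of glutamine and alanine and the member with the most counts, had 316, 312, 352 and 261 counts under the label siCTRL and 149, 157, 170 and 202 under the label siAPEX1. The highest library labelled siAPEX1, replicate 4, overlapped those labelled siCTRL in CPM, and the log2 fold change was −0.21 (SE 0.101, edgeR adjusted p = 0.104). Its relative SLC38A1 had 103, 139, 115 and 124 counts against 59, 55, 69 and 65 and a log2 fold change of −0.30 (SE 0.126, edgeR adjusted p = 0.0627), without overlap. SLC1A5, the glutamine carrier ASCT2, had 85, 87, 80 and 98 counts against 46, 34, 54 and 57 and a log2 fold change of −0.22 (edgeR adjusted p = 0.259). SLC7A1, a carrier of arginine and lysine, SLC6A6, which takes up taurine, and SLC38A10 had log2 fold changes of −0.32, 0.09 and 0.29 and did not pass either.

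SLC7A5, SLC1A5, SLC7A1, SLC38A1 and SLC38A2 are known targets of ATF4, the factor of the amino acid response, and were on a list of 8 such carriers, of which these 5 were members. Past the adjusted p in edgeR, 1 of the 5 was higher and 0 were lower, against 15.9% and 15.8% of all genes tested. The median log2 fold change of the 5 was −0.22. The core of the amino acid response element, TGATGNAA, was sought on both strands of the RefSeq promoters (GRCh38.p14, 250 bases before to 50 after the start of a gene), which could be matched for 52 members. It occurred in 3 of the 52 and in 3.67% of all 27305 promoters. The windows of 30 bases from the 2 carriers of this list that held it are shown for comparison with SLC7A5, in whose window these letters do not occur, with the core in capitals.
SLC38A1, chr12:46266502-46266531, minus strand: tcagacccgaaTGATGAAAagggatcagct
SLC7A1, chr13:29595663-29595692, minus strand: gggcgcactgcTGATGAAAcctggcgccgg
These matches are descriptions of the sequence, and neither of the 2 genes passed the adjusted p.

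Of the 13 zinc transporters, 2 were higher and 3 lower past the adjusted p in edgeR, where 15.9% of all genes tested were higher and 15.8% lower. The 5 of 13 that passed are near the 31.7% of all genes. Most SLC30 proteins move zinc out of the cytosol and most SLC39 proteins (ZIP) move it in. Among 4 SLC30 members 1 was higher and 0 were lower, and at an unadjusted p under 0.05 the counts were the same. Among 9 SLC39 members 1 was higher and 3 were lower. SLC30A1, the zinc exporter ZnT1 of the plasma membrane, had 16, 3, 7 and 9 counts in the libraries labelled siCTRL and 15, 13, 11 and 12 in those labelled siAPEX1. The highest library labelled siCTRL, replicate 1, overlapped those labelled siAPEX1 in CPM, and the means were 4.33 ± 2.75 and 9.87 ± 1.81 CPM (SD, n = 4 each). The log2 fold change was 1.18 (SE 0.336, edgeR adjusted p = 0.00549), the largest of the members that were higher.

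SLC30A1 is a known target of the zinc-sensing factor MTF1, which binds metal response elements. The core TGCACNC occurred on either strand in 5 of the 52 member promoters and in 11.9% of all promoters. The related core TGCGCNC, which cannot match at the same bases in the same orientation, occurred in 12 of the 52 and in 20% of all. Of the 6 promoters matched for members that were higher, 1 held TGCACNC and 2 held TGCGCNC. Of the 11 for members that were lower, 0 held TGCACNC and 4 held TGCGCNC, and of the 33 for members that did not pass, 4 and 5 did. SLC30A1 held TGCACNC at 2 places, starting 49 bases before and at base 25 after the start site, shown here because it was the member with the largest rise. Both are on the strand opposite to the gene, so the capitals give the core as its reverse complement.
SLC30A1, chr1:211579192-211579221, minus strand: acgggggttccGAGTGCAaagcaaagtttt
SLC30A1, chr1:211579119-211579148, minus strand: gagaccgggccGAGTGCAgctgccgtggcc
The counts do not show whether a factor binds there.

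SLC39A4, the ZIP4 importer of the plasma membrane, had 20, 13, 15 and 20 counts under the label siCTRL and 2, 7, 3 and 2 under the label siAPEX1. Of the 4 libraries labelled siAPEX1, 3 held no more than 3 counts, and each lay below each library labelled siCTRL in CPM. The log2 fold change of −1.60 (SE 0.386, edgeR adjusted p = 0.00119) was the lowest of the tested members. No library labelled siAPEX1 reached the filter's cutoff, so SLC39A4 was tested only because of its level under the label siCTRL. SLC39A14, or ZIP14, which also carries iron not bound to transferrin, had 54, 48, 45 and 42 counts against 17, 26, 13 and 17 and a log2 fold change of −0.71 (SE 0.202, edgeR adjusted p = 0.00531). Its groups overlapped in siAPEX1 replicate 2, and the adjusted p was 0.0691 without siAPEX1 replicate 3. SLC39A6, or ZIP6, had 28, 41, 28 and 37 counts against 8, 9, 16 and 14 and a log2 fold change of −0.85 (SE 0.243, edgeR adjusted p = 0.00577), without overlap.

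SLC39A9, or ZIP9, moved the other way, with 17, 9, 14 and 9 counts under the label siCTRL and 13, 17, 14 and 19 under the label siAPEX1. Each library labelled siAPEX1 lay above each labelled siCTRL in CPM, and the log2 fold change was 1.01 (SE 0.272, edgeR adjusted p = 0.00351). The 8 other zinc transporters, SLC30A5, SLC30A7, SLC30A9, SLC39A1, SLC39A7, SLC39A10, SLC39A11 and SLC39A13, did not pass. Their log2 fold changes ran from −0.67 for SLC39A13 (edgeR adjusted p = 0.12) to 0.34 for SLC30A9 (0.378). SLC39A10, the most counted of them with 31, 40, 38 and 46 counts against 22, 27, 32 and 26, had a log2 fold change of 0.12 (SE 0.186). The carriers of other metals, SLC11A2 for divalent iron and SLC48A1 for haem, had log2 fold changes of −0.26 and 0.10 and did not pass.

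**Figure D4:**
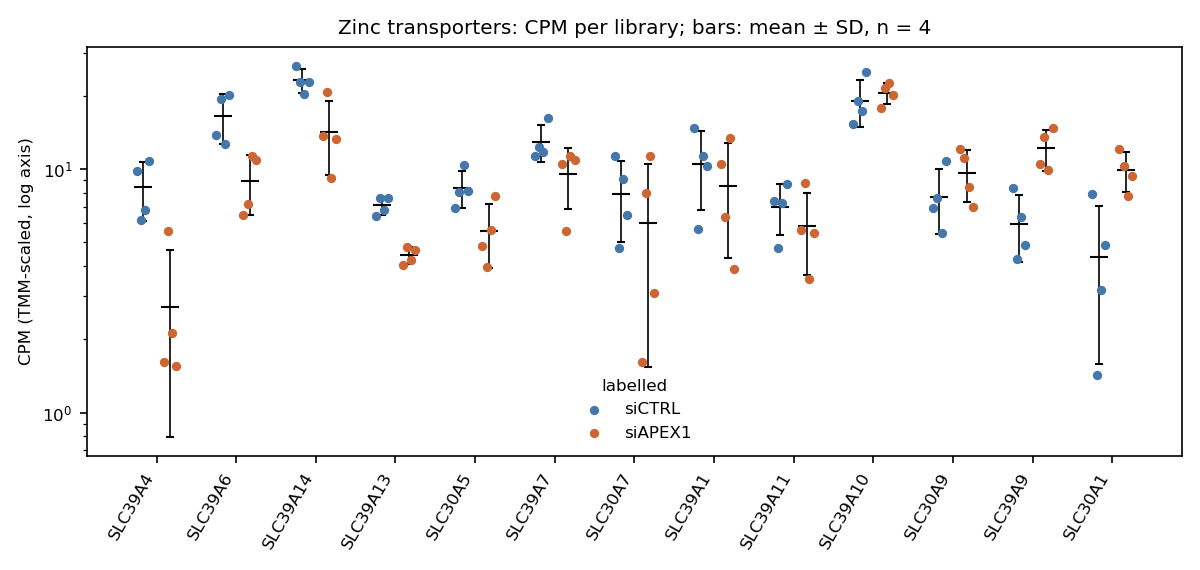
CPM per library (log axis) of the 13 zinc transporters among the members, sorted by log2 fold change, with the mean and SD of each group of 4 libraries. SLC39A4 and SLC39A6 lie lower and SLC39A9 higher in each library labelled siAPEX1, and SLC30A1 overlaps between the groups in siCTRL replicate 1.

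SLC35B1 (chromosome 17 from 49700934 to 49709014, minus strand), which brings ATP into the lumen of the endoplasmic reticulum (ER), had 41, 38, 34 and 32 counts under the label siCTRL and 12, 6, 7 and 9 under the label siAPEX1. Its level was 17.7 ± 1.96 against 6.59 ± 2.29 CPM (SD, n = 4 each), or 37.2%, without overlap, and the log2 fold change of −1.43 (SE 0.249, edgeR adjusted p = 1.40e-05) stayed between −1.76 and −1.27 under the alternatives. SLC33A1 (chromosome 3 from 155821024 to 155854456, minus strand), known as the acetyl-CoA transporter of the ER membrane, had 32, 42, 52 and 39 counts against 10, 12, 17 and 12. It was at 48.4% of the level under the label siCTRL, without overlap, with a log2 fold change of −1.03 (SE 0.218, edgeR adjusted p = 2.41e-04). In GENCODE 44 the exons of SLC33A1 share 2123 bases with another gene on the same strand (ENSG00000284952).

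SLC35D2, a carrier of UDP-N-acetylglucosamine in the Golgi, had 16, 21, 15 and 17 counts under the label siCTRL and 5, 5, 5 and 4 under the label siAPEX1. The groups did not overlap, and the log2 fold change was −1.19 (SE 0.329, edgeR adjusted p = 0.00442), with 1794 bases of exon shared with another gene on the same strand (ENSG00000285269). SLC35D2 too was tested only because of its level under the label siCTRL, as no library labelled siAPEX1 reached the filter's cutoff. Of the 8 SLC35 members, 5 were tested, of which 2 were lower and 0 higher, against 15.8% and 15.9% of all genes tested. SLC35B4, SLC35E1 and SLC35F6 did not pass, with log2 fold changes between −0.43 and −0.34. The untested SLC35A2, the carrier of UDP-galactose, had 12, 11, 17 and 10 counts against 5, 8, 12 and 6. SLC35F3 had 8, 10, 18 and 12 counts against 5, 7, 13 and 8, and SLC35F5 had 9, 21, 13 and 7 against 9, 7, 9 and 6.

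Of the 8 members in families of ion exchange, 2 were lower and 0 higher past the adjusted p, against 15.8% and 15.9% of all genes. SLC4A2 (chromosome 7 from 151057210 to 151076526, plus strand), which exchanges chloride for bicarbonate, had 42, 38, 37 and 28 counts under the label siCTRL and 12, 8, 10 and 7 under the label siAPEX1. It was at 40.4% of the level under the label siCTRL, without overlap, and the log2 fold change was −1.31 (SE 0.241, edgeR adjusted p = 3.46e-05). SLC12A2, the cotransporter of sodium, potassium and chloride, had 111, 102, 101 and 98 counts against 33, 53, 50 and 49, also without overlap, and a log2 fold change of −0.50 (SE 0.136, edgeR adjusted p = 0.00368). Without siAPEX1 replicate 1 its adjusted p was 0.052. SLC4A7, a sodium-bicarbonate cotransporter and one of the most counted members with 101, 126, 110 and 106 counts against 63, 75, 62 and 76, had a log2 fold change of −0.03 (SE 0.125, edgeR adjusted p = 0.899). Its level in CPM was 54.1 ± 5.15 and 53.3 ± 7.55 (SD, n = 4 each), with overlapping libraries. SLC12A4, SLC12A7, SLC20A1, SLC4A4 and SLC4A1AP had log2 fold changes between −0.22 and 0.37 and did not pass.

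Of the 6 members in families of sugar carriers, which include SLC2A4RG by its name only, 1 was lower and 0 were higher, against 15.8% and 15.9% of all genes tested. SLC2A3, the glucose transporter GLUT3, had 20, 27, 22 and 23 counts under the label siCTRL and 9, 4, 15 and 6 under the label siAPEX1. The groups overlapped in siAPEX1 replicate 3, and the log2 fold change was −0.78 (SE 0.286, edgeR adjusted p = 0.0342). The adjusted p lay between 0.058 and 0.179 without any 1 of siCTRL replicates 2 and 4 or of siAPEX1 replicates 1, 2 and 4, and with the replicate number as a block it was 0.0598. SLC5A3, the carrier of myo-inositol, SLC37A3, SLC45A4, SLC50A1 and SLC2A4RG had log2 fold changes between −0.73 and 0.13 and did not pass.

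Among the carriers of monocarboxylates and fatty acids, 1 of 6 was higher and 0 were lower, against 15.9% and 15.8% of all genes tested. SLC16A1, the lactate and pyruvate carrier MCT1, had 14, 13, 13 and 14 counts under the label siCTRL and 17, 10, 20 and 19 under the label siAPEX1. In CPM each library labelled siAPEX1 lay above each labelled siCTRL, at 12.6 ± 3.15 and 6.63 ± 0.760 (SD, n = 4 each), and the log2 fold change was 0.94 (SE 0.258, edgeR adjusted p = 0.00435). With library size only its adjusted p was 0.0577. Basigin (BSG), the chain that takes MCT1 to the cell surface, had a log2 fold change of −0.30 (SE 0.128, edgeR adjusted p = 0.0681). SLC16A3, the lactate exporter MCT4, SLC16A4, SLC16A5, SLC16A7 and SLC27A2, which takes up very long chain fatty acids, had log2 fold changes between −0.73 and 0.14 and did not pass.

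Of the 6 carriers of vitamins, choline and organic ions, 1 was higher and 1 lower, against 15.9% and 15.8% of all genes tested. SLC44A1, which takes up choline for phosphatidylcholine, had 28, 21, 19 and 26 counts against 20, 17, 34 and 25, with overlapping libraries and a log2 fold change of 0.68 (SE 0.220, edgeR adjusted p = 0.0152). Its adjusted p was 0.0686 without siCTRL replicate 3, 0.0984 without siAPEX1 replicate 3 and 0.207 with library size only. SLC22A18, an imprinted gene of the organic ion carriers, had 24, 18, 25 and 12 counts against 7, 3, 9 and 5, without overlap, and a log2 fold change of −1.05 (SE 0.320, edgeR adjusted p = 0.00979). Without siAPEX1 replicate 2, which held 3 counts, the log2 fold change was −0.82 (edgeR adjusted p = 0.0612). SLC22A18 reached the filter's cutoff in no library labelled siAPEX1, so it was tested only because of its level under the label siCTRL. SLC23A2, the vitamin C carrier, and SLC22A3, the organic cation transporter OCT3, did not overlap between the groups but had adjusted p of 0.0724 (log2 fold change −0.43) and 0.0751 (0.54) in edgeR. SLC29A4, a carrier of monoamines, and the riboflavin carrier SLC52A2 had log2 fold changes of 0.12 and −0.27.

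**Figure D5:**
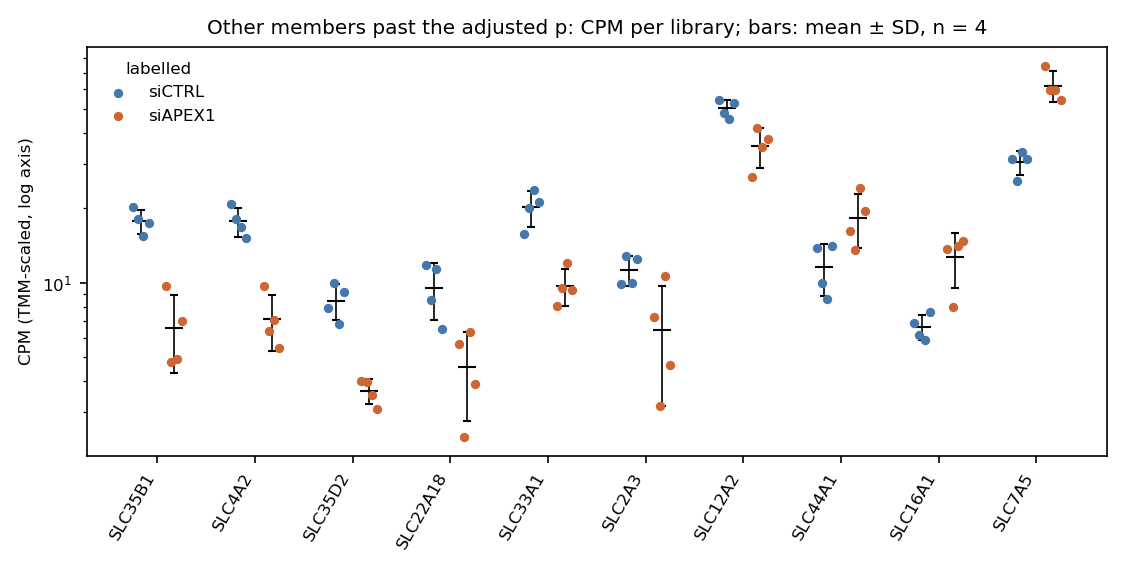
CPM per library (log axis) of the 10 members outside SLC25 and the zinc transporters that passed the adjusted p, sorted by log2 fold change, with the mean and SD of each group of 4 libraries. SLC35B1, SLC4A2 and SLC33A1 lie lower and SLC7A5 and SLC16A1 higher in each library labelled siAPEX1, and SLC2A3 and SLC44A1 overlap between the groups.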

How the data were processed

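The members, the lists and the rules for naming genes were chosen with earlier results of these data known. Named are the members past the adjusted p with the largest changes and no overlap between groups, the most counted members, SLC25 members by substrate, those nearest the limit of 80, and further members of each substrate group (SLC family number). The ratio of SLC25A6 to SLC25A5, the promoter motifs and the sums without some genes were added after values were seen.

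Reads were trimmed by the authors with cutadapt and mapped with STAR 2.5.3a on GRCh38, whose GeneCounts option made the count of each Ensembl gene. The deposited values are these raw counts per gene, without normalization, which leave out reads on several genes. The annotation release and the use of strand are not given in the sources used here. Without strand, reads of a gene and of an overlapping antisense gene cannot be told apart. Exons of 27 members overlap a gene on the opposite strand and those of 12 one on the same strand (GENCODE 44). Identifiers matched GENCODE 44 for 57532 of 58302 rows.

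Counts were tested with edgeR 4.0.16 in R 4.3.3 (TMM factors, quasi-likelihood test, filterByExpr at min.count 10 and min.total.count 15, Benjamini-Hochberg adjustment over 5368 genes). Library totals were kept at their full size. The standard error is the absolute log2 fold change divided by the square root of F. The common biological coefficient of variation was 0.0832. No replicate pair was alike within sampling noise, with a chi-square per degree of freedom between 1.67 and 2.97. Alternatives were other scalings, DESeq2 1.42.0, other filters, a fold threshold of 0.75, a replicate block and each library left out. The programs were tested on simulated data.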

Additional observations from a re-analysis of the deposited data

Results flagged for a closer look

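In 11 of 134 sets of 4 libraries (the tested members in each group, and the summed levels), 1 library stood apart from the other 3 by Dixon's criterion for 4 values. Chance gives about 5% of such sets. High libraries were SLC16A3 in siAPEX1 replicate 2 (17.5 CPM), SLC25A37 in siAPEX1 replicate 1 (89.4), SLC35F6 in siCTRL replicate 3 (12.7), SLC38A2 in siAPEX1 replicate 4 (157), SLC39A4 in siAPEX1 replicate 2 (5.56) and SLC50A1 in siCTRL replicate 1 (13.8). Low libraries were SLC16A1 in siAPEX1 replicate 2 (7.94 CPM), SLC20A1 in siCTRL replicate 4 (9.20), SLC25A39 in siAPEX1 replicate 4 (7.77), SLC2A4RG in siCTRL replicate 4 (4.87) and SLC39A7 in siAPEX1 replicate 2 (5.56). The library siAPEX1 replicate 2 accounts for 4 of the 11.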

How the results depend on the processing

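The cause of the changes given here was not tested. With library size only, 84 genes of all were higher and 647 lower past both thresholds. Of SLC25 genes 0 were higher (edgeR, also 0 at an unadjusted p under 0.05) and of the others 3 were higher and 25 lower, 0 members were higher and 15 lower past both thresholds, the medians were −0.736 (SLC25) and −0.601 (others), and the sums differed by −23.4% and −29.4%. With DESeq2, 0 SLC25 genes were higher and 0 lower (1 and 5 at an unadjusted p under 0.05), 1 of the others was higher and 4 lower, and the same 1 and 4 passed both thresholds. With every gene of at least 1 count, 943 genes passed (295 higher, 648 lower), 0 SLC25 genes were higher (edgeR, 2 unadjusted), 1 member was higher past both thresholds and the medians were −0.496 and −0.353. With at least 10 counts in every library, 181 genes passed (81 higher, 100 lower), of SLC25 genes 0 were higher (edgeR, 2 unadjusted) and 3 lower, of the others 3 and 6, past both thresholds 0 and 1, and the medians were −0.286 and −0.141. A log2 threshold of 0.75 gave 11 lower. A limit of 160 counts gave medians of −0.199 (SLC25) and −0.292 (others), which turns the order of the sets. TMM from protein-coding genes gave −0.7% for the SLC25 sum and −8.4% for the other members' sum, and leaving out SLC25A6 and SLC25A37 gave −25% for the SLC25 sum.

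Leaving out 1 library at a time, SLC25 genes gave 0 to 3 higher (edgeR, 0 without siCTRL replicate 3, with 3 unadjusted) and 3 to 6 lower, the others 4 to 6 and 8 to 11, and past both thresholds 0 to 3 and 5 to 8 (0 without siCTRL replicate 2, where 5 of the others passed the adjusted p in edgeR). The medians ran from −0.41 to −0.356 and from −0.25 to −0.136, the genes of all from 528 to 602 (215 to 234 higher, 313 to 375 lower), and the sums from −5.1% to −2.1% and from −11.6% to −10.1%.

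The direction turned 28 times in 15 members, of which SLC25A6 alone had passed the adjusted p. Under library size only it turned in SLC12A4 (−0.023), SLC16A7 (−0.197), SLC25A6 (−0.049), SLC29A4 (−0.216), SLC38A10 (−0.043), SLC39A10 (−0.217), SLC45A4 (−0.204), SLC48A1 (−0.238), SLC4A1AP (−0.219) and SLC6A6 (−0.245), with every gene of 1 count in SLC6A6 (−0.005) and with protein-coding TMM in SLC4A7 (0.014). Without 1 library at a time the log2 fold change ran across 0, from −0.606 to 0.037 in SLC16A3, −0.211 to 0.165 in SLC20A1, −0.346 to 0.015 in SLC25A23, −0.089 to 0.429 in SLC29A4, −0.464 to 0.033 in SLC37A3, −0.087 to 0.31 in SLC45A4, −0.082 to 0.288 in SLC48A1, −0.05 to 0.363 in SLC4A1AP and −0.067 to 0.093 in SLC4A7.

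The replicate numbers did not pair the libraries (correlations of −0.037 to −0.003, and no library went best with its own number). With the replicate block 494 genes passed, and of SLC25 genes 2 were higher and 5 lower and of the others 5 and 9. The block ended the calls of SLC25A36 (adjusted p = 0.0548, edgeR) and SLC2A3 (0.0598) and no other. Depth limits the comparison, since 24 of the 67 members had at least 10 counts in every library.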
